A study of Mus musculus with 26 samples.

Results

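The genes described here are 9 mouse zinc genes, namely the zinc exporters Slc30a1, Slc30a4 and Slc30a7, the zinc importers Slc39a4, Slc39a6, Slc39a8 and Slc39a10, and the metallothioneins Mt1 and Mt2. They were taken by gene symbol from a table of 46517 symbols, and each symbol was present once. RNA-seq had been run on thymocytes of mice that carry a rearranged T cell receptor (TCR) transgene, to ask how gene expression differs between TCRs of low (TG6), intermediate (F5) and high (OT-1) self-reactivity during CD8 T cell positive selection. The 26 libraries form 9 groups, from 3 lines at 3 sorted stages, with 3 libraries in each group except late TG6, which has 2.

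The lines differ in more than the TCR. By the labels, OT-1 mice were OT-1tg Rag2KO and F5 mice were F5tg Rag1KO, both on C57/BL6, whereas TG6 mice were TG6tg H2b/d from C57/BL6 x B6.C-H2d/bByJ and are described by the study as Rag-sufficient. TCR, Rag genotype, MHC haplotype and background therefore cannot be told apart in any comparison of TG6 with another line, and OT-1 and F5 differ in the deleted Rag gene as well. Early positive selection cells were CD4+CD8+ and CXCR4+CCR7-, late positive selection cells were CD4+CD8+ but had become CXCR4-CCR7+, and mature CD8SP cells were CD4-CD8+ with that second chemokine receptor phenotype. No age or sex is given in the labels, and cells were sorted from whole thymus suspensions.

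Zinc is moved by a pair of transporter families that work in opposite directions. ZnT proteins (Slc30a genes) lower cytosolic zinc by exporting it or loading it into vesicles and the secretory pathway, and ZIP proteins (Slc39a genes) raise it by bringing zinc in from outside the cell or out of organelles. Metallothioneins are small cysteine-rich proteins that bind zinc in the cytosol, and their genes and Slc30a1 are textbook targets of the zinc-sensing factor MTF-1, which binds the metal response element. In T cells, zinc entering the cytosol is known as a modulator of TCR signaling.

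The promoters below are shown because they carry the element through which zinc is known to act on the metallothioneins and on Slc30a1, the genes that a reader would look to for a zinc response, and because Slc30a4 had the lowest p-values of the members between lines. The sequences are RefSeq promoters on GRCm38.p6, from 250 bases before to 50 bases after the transcript start, read 5′ to 3′ on the strand of the gene. Capitals mark each match, on either strand, to TGCACNC or TGCGCNC, the core of the metal response element, and no matches overlapped in these windows.
Mt1 (chr8:94178839-94179138, plus strand): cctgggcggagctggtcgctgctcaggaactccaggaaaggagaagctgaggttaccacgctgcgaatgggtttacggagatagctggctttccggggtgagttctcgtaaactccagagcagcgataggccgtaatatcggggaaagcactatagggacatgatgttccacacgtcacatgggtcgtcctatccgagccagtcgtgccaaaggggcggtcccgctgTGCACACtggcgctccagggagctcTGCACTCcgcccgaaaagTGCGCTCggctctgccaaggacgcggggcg
Mt2 (chr8:94172368-94172667, plus strand): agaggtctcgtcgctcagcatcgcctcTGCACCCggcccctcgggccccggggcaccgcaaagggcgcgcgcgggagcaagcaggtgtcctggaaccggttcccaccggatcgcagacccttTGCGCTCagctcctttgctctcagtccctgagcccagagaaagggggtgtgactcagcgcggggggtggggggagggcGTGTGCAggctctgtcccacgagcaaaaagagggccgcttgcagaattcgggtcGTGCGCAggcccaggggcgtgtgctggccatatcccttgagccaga
Slc30a1 (chr1:191906531-191906830, plus strand): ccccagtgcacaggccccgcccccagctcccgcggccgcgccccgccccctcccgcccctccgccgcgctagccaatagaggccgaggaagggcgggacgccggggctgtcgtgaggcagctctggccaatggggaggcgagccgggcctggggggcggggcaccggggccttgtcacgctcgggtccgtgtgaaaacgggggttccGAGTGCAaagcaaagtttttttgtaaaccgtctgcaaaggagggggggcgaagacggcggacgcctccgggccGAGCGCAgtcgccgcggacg
Slc30a4 (chr2:122702614-122702913, minus strand): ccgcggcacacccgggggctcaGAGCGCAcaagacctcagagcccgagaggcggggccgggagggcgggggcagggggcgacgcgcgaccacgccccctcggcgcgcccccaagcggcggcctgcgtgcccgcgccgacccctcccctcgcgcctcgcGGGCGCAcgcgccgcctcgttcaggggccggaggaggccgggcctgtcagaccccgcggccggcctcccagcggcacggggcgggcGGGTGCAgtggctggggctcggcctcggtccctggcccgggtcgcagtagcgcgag

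There were 3 matches in the Mt1 window, 4 in the Mt2 window, 2 in the Slc30a1 window and 3 in the Slc30a4 window. Of 32851 RefSeq mouse promoters of the same length, 25.7% held at least 1 match, 1.97% held at least 3 and 0.517% held at least 4. This background was not matched for base composition, so these shares do not show that 3 matches are unusual for a window like that of Slc30a4. The Slc30a7 window and both Slc39a10 windows held none, and of 2 Slc39a8 windows 1 held a single match. Slc39a4 and Slc39a6 have no promoter sequence here. A match is a description of the letters in the window and not a mapped binding site.

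Normalized counts summed to 16134786 to 18944173 per library, a range that the authors' scaling sets and that does not give the depth in reads. Thymocyte and sort markers (Cd3e, Cd8a, Cd8b1, Cd4, Cxcr4, Ccr7, Ptcra and Rag1) summed to 40570 to 150600. Markers of other cells ranged from absent to clearly present. The NK cell marker Ncr1 was at 0 in 26 of 26 libraries and Klrb1c of the same list in 16, with a highest value of 15.3 in mature TG6, and the granulocyte markers S100a8 and S100a9 in 21 and 20. The epithelial markers Foxn1, Krt5 and Krt8 were at 0 in 25, 24 and 20, while Epcam of the same list was at 10.2 to 47.7. Pecam1, which thymocytes also express, was at 1799 to 3627, and Hbb-bs reached 432, Itgam 276, Xcr1 98.6 and Lyz2 93.9. TG6 mature replicate 3 stood apart from its group in markers of less mature thymocytes, with Rag1 at 5265 against 696 and 619.9, Ptcra at 787 against 94.9 and 94.5, and Cd4 at 461 against 129 and 77.1. Without it, among the members, Slc39a8 gained a call between OT-1 and TG6 at the mature stage and Slc30a4 lost the call for a difference that changed with stage (limma adjusted p = 0.0502). Reads were assigned to Rag1 in F5 (62.3 to 16270) and to Rag2 in OT-1 (5.37 to 290.7), so that these symbols did not show the deletion, and which part of either gene is deleted was not analysed here.

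Deposited values were high for most of the transporter genes and close to 0 for the metallothioneins. The metallothionein genes are short and share sequence, which makes their low values uncertain. On the scale of mean normalized count per kilobase of merged exon, averaged over the 26 libraries, Slc39a6 had the highest mean level (214), followed by Slc30a4 (167), Slc39a10 (106), Slc30a7 (93.3) and Slc30a1 (74.1). Slc39a8 (14.8) and Slc39a4 (10.2) were far lower, and Mt1 (0.675) and Mt2 (0.327) were lower still. The order of the first pair turned in 4 of the 9 groups, with Slc30a4 above Slc39a6 in early TG6 (336 against 169 per kilobase), late TG6 (186 against 171.5), early F5 (251 against 165) and late F5 (196 against 138). In OT-1 the level of Slc30a4 was 85.5, 65.6 and 59.8 per kilobase at the successive stages, below Slc39a10 at each of them (101, 128 and 128) and below Slc30a7 at the late and mature stages (103 and 105), so the order of the pooled means does not hold within that line. The order also depends on merged exon length (11116 bases for Slc30a7 and 4073 for Slc39a6), which need not be the length of the expressed transcript. By median normalized count Slc30a7 (1030) was above Slc30a4 (925) and Slc39a6 (876.5). The members also differed in how much they varied. From the lowest to the highest library, the normalized count of Slc39a4 changed by 38.6-fold, that of Slc30a4 by 6.55-fold, and that of Slc39a10, the steadiest, by 1.87-fold.

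**Figure D1:**
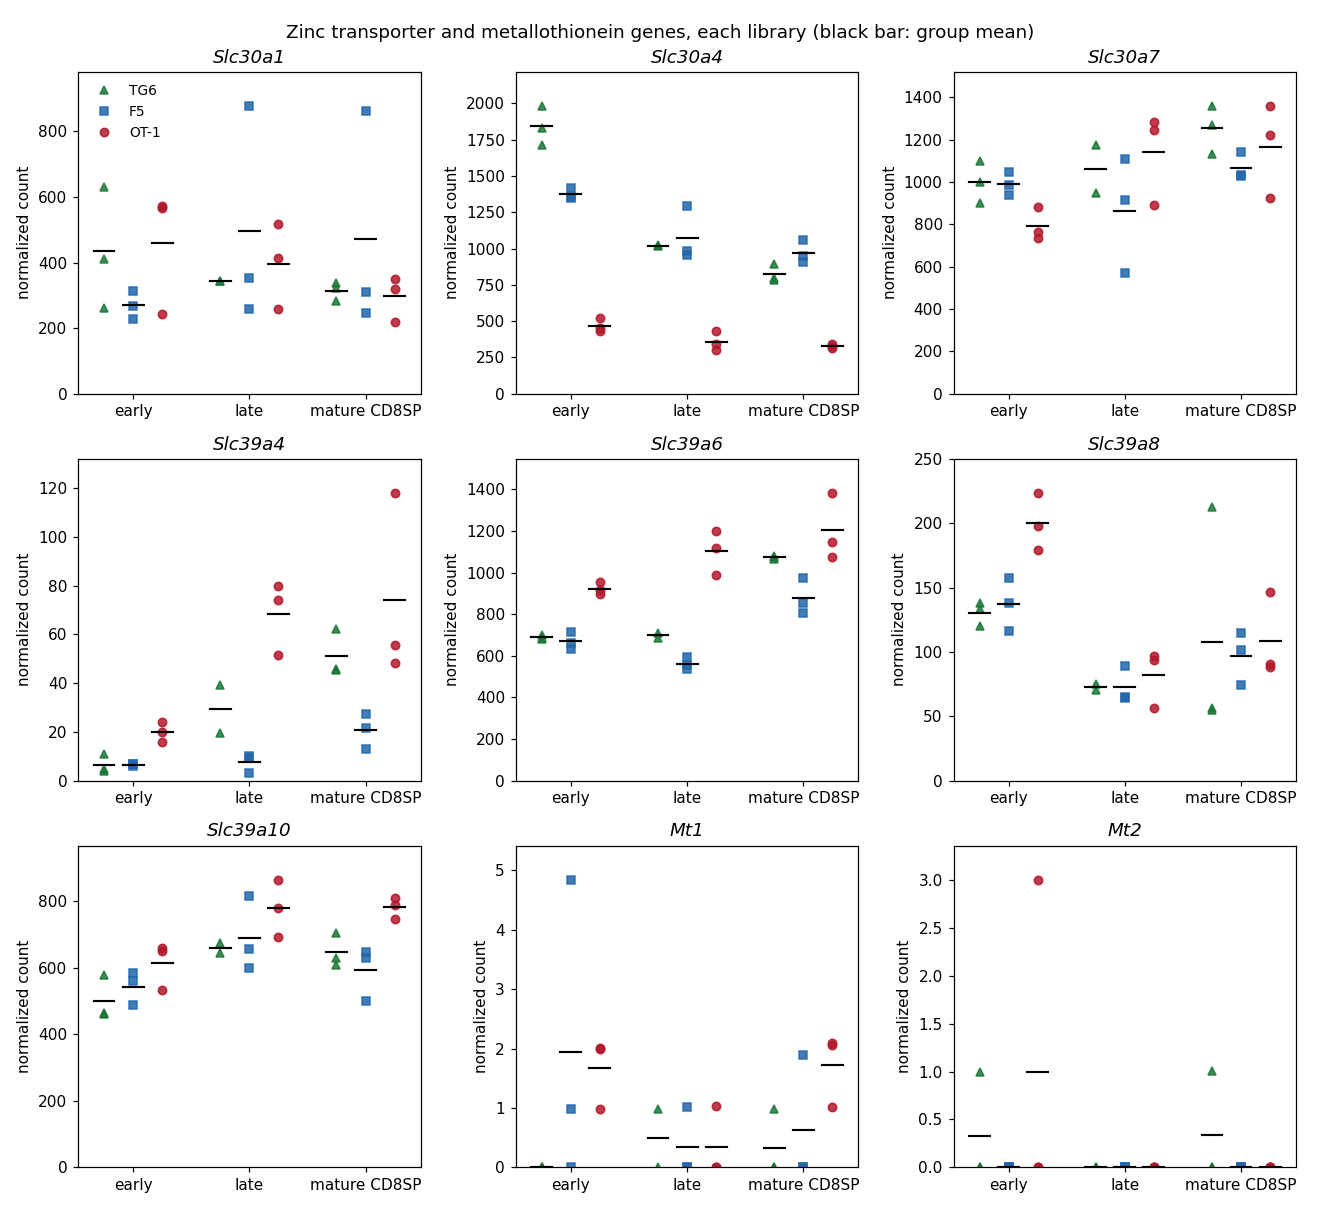
Normalized counts (vertical axis, linear, starting at 0) of the 9 zinc genes in each of the 26 libraries by stage (horizontal axis), with triangles for TG6, squares for F5, circles for OT-1 and a black bar for each group mean. Slc30a4 in OT-1 (302 to 521) lies below every TG6 and F5 library, the group mean of Slc39a4 is lowest at the early stage in each line, and Mt1 and Mt2 stay at or below 4.84.

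The question put to each pair of lines was whether the members differ at a given stage. Tests were made with limma on log2(normalized count + 1) over 16372 symbols, with Benjamini-Hochberg adjustment and calls under 0.05. A fold change on this scale understates the change of low genes. The filter on low values kept 7 of the 9 members, leaving out Mt1 and Mt2. The median log2 difference of these 7 ran from -0.25 to 0.46 over the 15 comparisons, and that of all symbols tested from -0.025 to 0.036. A median of 7 genes varies more than a median of 16372, so no shift of the members is read from these ranges.

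Between OT-1 and TG6, 3 of the 7 were called at the early stage, where 27.8% of all symbols were called. Slc39a4 and Slc39a6 were higher and Slc30a4 was lower in OT-1. At the late stage 2 were called (Slc39a6 higher and Slc30a4 lower; 15.5% of all symbols), and at the mature stage Slc30a4 alone was called as lower (9.74% of all symbols). Between OT-1 and F5 the same 3 members were called in the same directions at the early stage (12.7% of all symbols) and at the late stage (24% of all symbols), and at the mature stage Slc39a10 joined them as higher, for 4 members (23.3% of all symbols).

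Between F5 and TG6, Slc30a4 was called as lower in F5 at the early stage (1 of 7, against 6.46% of all symbols) and Slc39a4 as lower at the late stage (1 of 7, against 4.97%). In mature cells limma called 0 of 7, with 2 at an unadjusted p under 0.05 (Slc39a4 and Slc39a6, both lower in F5), against 6.64% of all symbols called. The comparisons share libraries of each line, so their counts are not independent of each other.

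**Figure D2:**
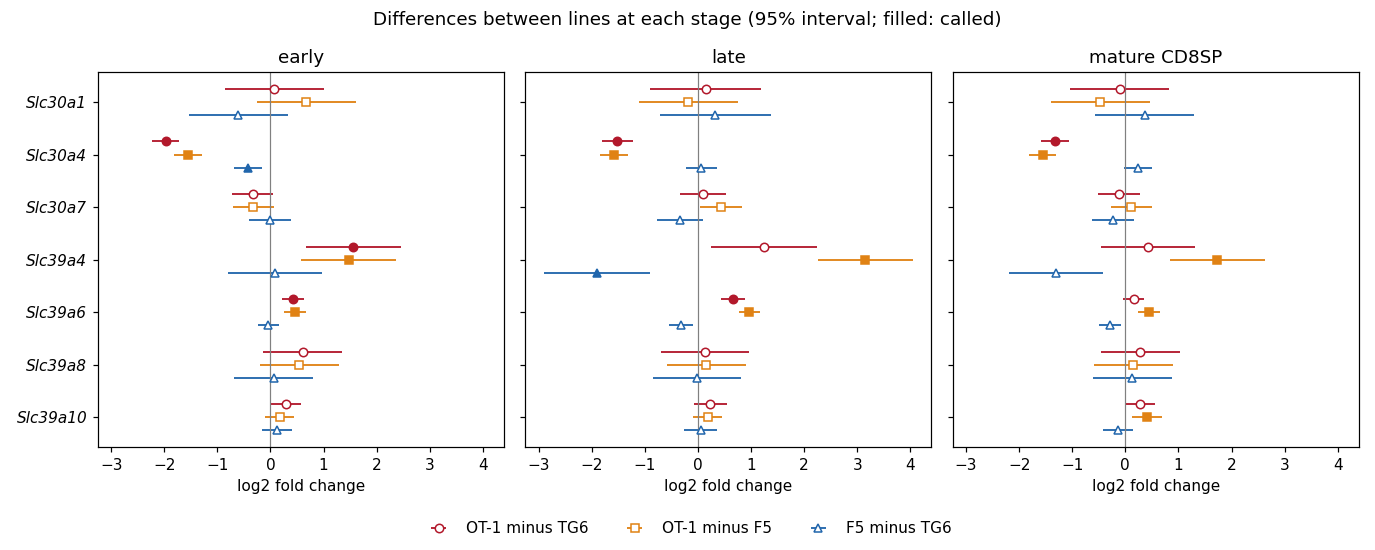
Log2 fold change between lines (horizontal axis) for the 7 members tested at each stage (panels), with limma 95% intervals as lines and filled symbols for calls. The Slc30a4 intervals for OT-1 against TG6 and against F5 lie wholly below 0 at all stages, while the widest intervals belong to Slc30a1 and Slc39a4.

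Within each line, members were also followed from early to late positive selection and on to the mature stage. From early to late, 2 of the 7 were called in TG6 (Slc39a4 rose and Slc30a4 fell; 25.4% of all symbols called), 1 in F5 (Slc30a4 fell; 26.7%) and 4 in OT-1 (Slc30a7 and Slc39a4 rose, Slc30a4 and Slc39a8 fell; 26.7%). From late to mature, 1 was called in TG6 (Slc39a6 rose; 22.3%) and 2 in F5 (Slc39a4 and Slc39a6 rose; 20.5%). In OT-1 limma called 0 of 7 from late to mature, with 0 at an unadjusted p under 0.05, against 24.4% of all symbols. In F5, where libraries of the same replicate number varied together, a fit with the replicate number as a block called 4 members from early to late in place of 1, adding Slc39a6, Slc39a8 and Slc39a10. The share of all symbols called by the fit with the block was not computed, so no gain particular to the members is read from this.

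**Figure D3:**
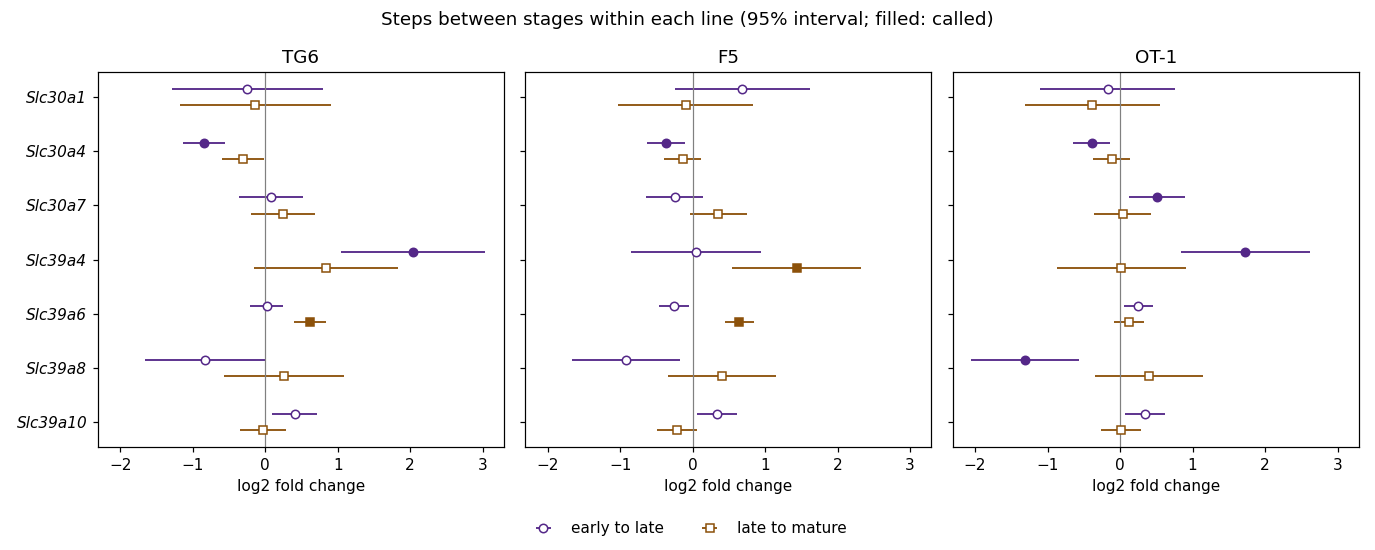
Log2 fold change between successive stages (horizontal axis) for the 7 members tested in each line (panels), with limma 95% intervals as lines and filled symbols for calls. Slc30a4 falls from early to late in each line (-0.85 in TG6, -0.37 in F5 and -0.39 in OT-1), and the rise of Slc39a6 from late to mature is called in TG6 (0.62) and F5 (0.64) and not in OT-1 (0.12).

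Slc30a4, which encodes ZnT4, a transporter that loads zinc into intracellular vesicles, had the lowest adjusted p-values of the members between lines. At the early stage its normalized counts were 1979, 1829 and 1714 in TG6, 1348, 1356 and 1418 in F5, and 430, 521 and 455 in OT-1. The 3 lines did not overlap at this stage, with TG6 at the top and OT-1 at the bottom. At the late stage counts were 1027 and 1014 in TG6, 1291, 979.6 and 956 in F5, and 344, 432 and 302 in OT-1. At the mature stage they were 895, 797 and 781 in TG6, 1061, 946 and 904 in F5, and 328, 341 and 315 in OT-1. The highest OT-1 library of any stage, at 521, lay below the lowest TG6 library of any stage, at 781. As these are bulk samples, fewer cells that express a gene and less RNA per cell cannot be told apart.

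Against TG6, Slc30a4 was lower in OT-1 by 3.93-fold at the early stage (log2 difference -1.97, SE 0.12, n = 3 and 3, limma adjusted p = 1.48e-10), by 2.87-fold at the late stage (-1.52, SE 0.14, n = 3 and 2, limma adjusted p = 1.06e-07) and by 2.51-fold at the mature stage (-1.33, SE 0.12, n = 3 and 3, limma adjusted p = 1.79e-07). Against F5 it was lower in OT-1 by 2.94-fold, 2.99-fold and 2.95-fold at the successive stages, with a largest limma adjusted p of 1.92e-08. These 6 calls were kept under each alternative setting and with any library left out. Erythroid markers (Hbb-bs and Hba-a1) summed to 177.7 to 689 in early OT-1 libraries against 79.4 to 189.8 in early TG6 and 17.9 to 303 in early F5. Dendritic cell markers (Flt3, Itgax, Siglech and Xcr1) summed to 79.5 to 179 in early OT-1, without overlap with early TG6 (24.7 to 58.1) or early F5 (33.2 to 53.7). Siglech and Itgax were higher in early OT-1 than in both other lines without overlap, and Flt3 was so against TG6 but overlapped with F5. Early Xcr1 overlapped, at 13.0 to 20.7 in OT-1, 11.6 to 26.8 in TG6 and 14.6 to 19.3 in F5. At later stages the dendritic sums were lower in OT-1 than in TG6, as Slc30a4 was, at 33.7 to 43.9 against 67.9 to 75.0 in late cells and 71.2 to 87.9 against 121 to 224 in mature cells, and overlapped with F5 (35.4 to 44.0 and 48.3 to 110). In late cells Flt3 and Xcr1 were lower in OT-1 than in TG6 without overlap, while Itgax and Siglech overlapped. The B cell markers Cd79a and Ms4a1 together were also lower in OT-1 than in TG6 in late cells (37.6 to 48.2 against 56.7 to 75.2) and mature cells (26.1 to 36.6 against 40.4 to 45.3). Thymocyte and sort markers differed between lines in both directions. Cd8a was lower in OT-1 than in both other lines at each stage, at up to 20020 against at least 31840 in early cells, up to 16810 against at least 21020 in late cells and up to 20660 against at least 21300 in mature cells. In early cells Rag1 was at 4303 to 6987 in OT-1 and 51110 to 58360 in TG6. F5 mice are Rag1KO, so the Rag1 values of early F5 (10830 to 16270) come from a targeted gene and are not compared with these. Ccr7 was higher in early OT-1 (648 to 863) than in early TG6 (112 to 199) and F5 (139.8 to 269.9). The part of these lists and genes in the differences between OT-1 and the other lines, for Slc30a4 and for the importers alike, was not tested.

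Between F5 and TG6, Slc30a4 was lower in F5 at the early stage by 1.34-fold (log2 difference -0.42, SE 0.12, limma adjusted p = 0.0468), a call that was lost in 8 of 15 alternatives, among them on leaving out any 1 of the 6 early libraries of these lines (limma adjusted p = 0.0687 to 0.176). At the late stage the F5 and TG6 values overlapped (0.06, limma adjusted p = 0.897). In mature cells the F5 libraries were all above the TG6 libraries, without passing the test (0.23, 95% interval -0.025 to 0.49, limma adjusted p = 0.352).

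Slc30a4 fell from early to late positive selection in TG6 by 1.80-fold (log2 difference -0.85, SE 0.14, limma adjusted p = 7.60e-05), in F5 by 1.29-fold (-0.37, SE 0.12, limma adjusted p = 0.0326) and in OT-1 by 1.31-fold (-0.39, SE 0.12, limma adjusted p = 0.0225). The early and late libraries of TG6 were far apart, whereas those of OT-1 overlapped (lowest early 430, highest late 432). In F5 the call was lost in 8 of 16 alternatives, among them on leaving out any early library or late replicate 2 or 3 (limma adjusted p = 0.0596 to 0.150), and in OT-1 in 5 of 16, among them without early replicate 2 or late replicate 1 or 3 (0.0725 to 0.132). From late to mature its log2 differences were -0.31 in TG6, -0.14 in F5 and -0.12 in OT-1, none of which passed the test, though the TG6 step was called when each library was scaled to the same total (-0.42, 0.0240) and after quantile normalization (-0.42, 0.0394). Macrophage markers (Csf1r, Lyz2, Itgam and Adgre1) summed to 134.9 to 279.9 in early libraries against 59.6 to 131 in late ones. In TG6 and F5 Itgam made up most of this sum (154.5 to 276 in early libraries), while Csf1r was at 0 to 8.29 early and at 0 to 11.2 late. Dendritic cell marker sums fell over this step in OT-1 (79.5 to 179 early and 33.7 to 43.9 late), overlapped in F5 and rose in TG6. The part of either list in the early to late falls was not tested.

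Slc30a7, which encodes ZnT7, a transporter of the early secretory pathway, had normalized counts of 569 to 1358. Early OT-1 libraries, at 884, 763 and 735, lay below all 3 early TG6 libraries (901 to 1102) and all 3 early F5 libraries (939.9 to 1049), and neither difference passed the test (log2 difference -0.33, limma adjusted p = 0.196, and -0.32, 0.289). In late OT-1 the counts were 892, 1285 and 1248, all above the early ones. Slc30a7 rose from early to late in OT-1 by 1.42-fold (0.51, SE 0.19, limma adjusted p = 0.0495), a call at the threshold that was lost in 9 of 16 alternatives, among them on leaving out 5 of the 6 libraries in turn, all but late replicate 1 (0.0517 to 0.181). No other comparison called Slc30a7. Its late difference between OT-1 and F5 was 0.43 (limma adjusted p = 0.101) and was called without F5 late replicate 3 (0.64, 0.0231) or OT-1 late replicate 1 (0.60, 0.0411), and the early difference from TG6 was called with just these groups in the fit (0.0473).

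Slc30a1 encodes ZnT1, the exporter of the plasma membrane, and was called in no comparison by limma (lowest adjusted p = 0.287, with 0 of 15 comparisons at an unadjusted p under 0.05). Its libraries spread widely within groups. F5 replicate 1 reached 876 at the late stage and 862 at the mature stage, against 246 to 354 in the other F5 libraries of these stages, and in early OT-1 the counts were 573, 566 and 243. The SE of its log2 differences was 0.45 between groups of 3, so that a difference of the size called for Slc39a6 was not detectable. In the order of group means, from 496 in late F5 to 269.9 in early F5, all neighbours overlapped except late and mature TG6.

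Slc39a4 encodes ZIP4, a zinc importer of the plasma membrane best known for zinc uptake in the gut, and had the largest fold changes of the members tested. At the early stage its normalized counts were 10.9, 3.98 and 4.84 in TG6, 6.82, 6.77 and 5.82 in F5, and 23.98, 20.1 and 15.8 in OT-1. The OT-1 libraries were all above those of the other lines. At the late stage counts were 39.2 and 19.7 in TG6, 9.19, 10.04 and 3.06 in F5, and 79.7, 74.3 and 51.7 in OT-1, so that the 3 lines were separate. At the mature stage they were 45.4, 45.7 and 62.1 in TG6, 27.3, 21.7 and 13.0 in F5, and 55.5, 118 and 48.5 in OT-1, and TG6 and OT-1 overlapped. In early TG6 and F5 only 1 of 6 libraries reached the minimum of 10, so the gene passed the filter through its higher groups, to which TG6 and F5 contributed as well (10 of their 17 libraries over all stages).

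In the test between lines, Slc39a4 was higher in OT-1 than in F5 by 2.77-fold at the early stage (log2 difference 1.47, SE 0.43, limma adjusted p = 0.0260), by 8.89-fold at the late stage (3.15, SE 0.43, 1.14e-05) and by 3.33-fold at the mature stage (1.73, SE 0.43, 0.00593). The early call was lost on leaving out any of 5 of the 6 libraries, all but OT-1 replicate 3 (0.0512 to 0.101), and without the filter on low values (0.0535). OT-1 also exceeded TG6 at the early stage by 2.95-fold (1.56, SE 0.43, limma adjusted p = 0.00946), though not without TG6 replicate 2 (1.31, 0.0552). The call was kept with no filter on low values (0.0208). The late difference between OT-1 and TG6 was 1.25 (95% interval 0.25 to 2.24, limma adjusted p = 0.0838, or 0.0441 with a pseudocount of 5) and the mature difference was 0.43 (-0.46 to 1.32, 0.566). Late F5 was lower than late TG6 by 3.74-fold (-1.90, SE 0.48, limma adjusted p = 0.0196), a call lost without TG6 late replicate 1 (-1.42, 0.337) or F5 late replicate 3 (-1.44, 0.101), or with just these groups in the fit (0.229).

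Within lines, Slc39a4 was followed from stage to stage. In OT-1 it rose from early to late by 3.31-fold (log2 difference 1.73, SE 0.43, limma adjusted p = 0.00462) and from late to mature the difference was 0.018 (limma adjusted p = 0.986). In TG6 it rose from early to late by 4.11-fold (2.04, SE 0.48, limma adjusted p = 0.00270), which did not hold without late replicate 1 (1.56, 0.0832), and the step from late to mature was 0.84 (limma adjusted p = 0.228). In F5 the early to late difference was 0.046 (limma adjusted p = 0.959), and Slc39a4 rose from late to mature by 2.71-fold (1.44, SE 0.43, limma adjusted p = 0.0202). Leaving out F5 late replicate 3, mature replicate 1 or mature replicate 2 ended that call (0.0687 to 0.147), as did a fit of just these groups (0.149). Whether the steps differ between lines was tested only for OT-1 and TG6 between the early and mature stages, where the interaction was 1.13 (limma adjusted p = 0.431). That interaction called 1 of the 7 members, Slc30a4 (log2 difference of differences -0.65, limma adjusted p = 0.0377), against 4.2% of all symbols. The call was lost in 12 of 22 alternatives, 9 of them with a library left out (adjusted p up to 0.111).

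**Figure D4:**
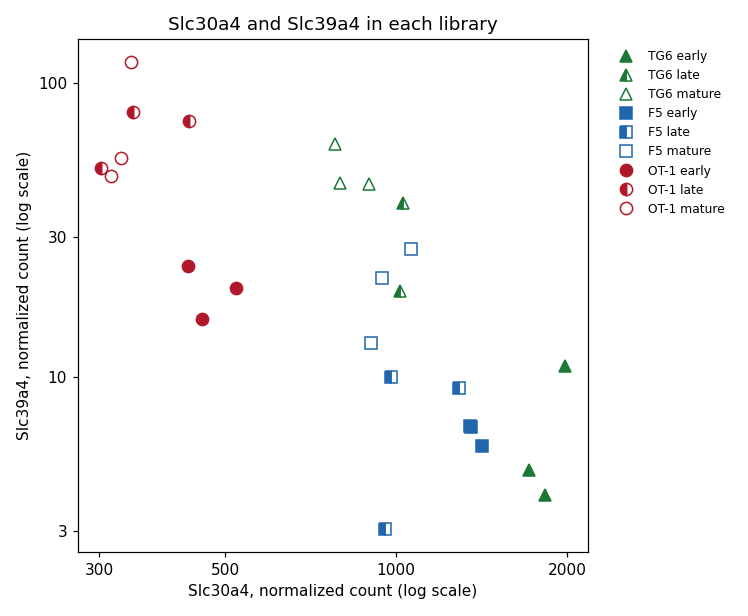
Slc30a4 (horizontal axis) and Slc39a4 (vertical axis) in each of the 26 libraries, normalized counts on log axes, with the line as shape and the stage as fill. OT-1 libraries lie at Slc30a4 counts of 302 to 521 on the left, and early TG6 libraries, with Slc30a4 counts of 1714 to 1979, lie at the lower right.

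Across the 26 libraries the log2 values of Slc30a4 and Slc39a4 were inversely related (Pearson r = -0.757), and so were those of Slc30a4 and Slc39a6 (-0.783), while Slc39a4 and Slc39a6 went together (0.830). These correlations describe differences among the 9 groups, since the libraries share lines and stages. After the group means were removed, the 3 values were 0.420, -0.401 and -0.200.

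Slc39a6, which encodes ZIP6, a plasma membrane importer that pairs with ZIP10, was higher in OT-1 than in F5 at every stage and exceeded its TG6 level at the early and late stages. At the early stage its normalized counts were 698, 683 and 686 in TG6, 635, 663 and 714 in F5, and 897, 916 and 956 in OT-1. At the late stage they were 711 and 686 in TG6, 554, 594 and 535 in F5, and 1117, 988 and 1200 in OT-1. Mature counts were 1077, 1080 and 1064 in TG6, 807, 976 and 856 in F5, and 1149, 1077 and 1382 in OT-1. OT-1 libraries were thus above all others at the early and late stages, and at the mature stage they met TG6 but not F5.

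OT-1 exceeded TG6 in Slc39a6 by 1.34-fold at the early stage (log2 difference 0.42, SE 0.097, limma adjusted p = 0.00267) and by 1.57-fold at the late stage (0.65, SE 0.11, 0.000206), and the mature difference was 0.16 (95% interval -0.046 to 0.36, limma adjusted p = 0.324). The change of this difference between the early and mature stages did not pass the test (interaction 0.27, limma adjusted p = 0.405). Against F5 the values were 1.38-fold, 1.96-fold and 1.36-fold at the successive stages, with a largest limma adjusted p of 0.00244, and the mature call was lost with just these groups in the fit (0.0509). F5 was below TG6 without overlap at the late and mature stages, with log2 differences of -0.32 (limma adjusted p = 0.109) and -0.29 (0.0805), and the mature one was called on leaving out F5 replicate 2 (-0.37, 0.0355). From late to mature, Slc39a6 rose in TG6 by 1.54-fold (0.62, SE 0.11, limma adjusted p = 0.000267) and in F5 by 1.56-fold (0.64, SE 0.097, 5.46e-05). In F5 the early to late difference of -0.26 had a limma adjusted p of 0.0546 without the replicate block and 0.0165 with it, and was called with a mean of 50 or more (0.0387). In OT-1 the early to late difference was 0.25 (0.0608) and was called without late replicate 2 (0.33, 0.0310), with a mean of 50 or more (0.0435) and after quantile normalization (0.30, 0.0272). Dendritic cell marker sums rose from late to mature without overlap in each line. They were 67.9 to 75.0 and then 121 to 224 in TG6, 35.4 to 44.0 and 48.3 to 110 in F5, and 33.7 to 43.9 and 71.2 to 87.9 in OT-1. Their part in the late to mature rises of Slc39a6 and Slc39a4 was not tested.

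Slc39a8, which encodes ZIP8, an importer of zinc and manganese, had its highest group mean at the early stage in each line. Early normalized counts were 138, 120 and 133 in TG6, 116, 157 and 138 in F5, and 223, 198 and 179 in OT-1. Late counts were 74.9 and 70.6 in TG6, 64.1, 88.9 and 64.7 in F5, and 96.6, 56.3 and 93.7 in OT-1. All early libraries were above all late ones. The fall from early to late was called in OT-1, at 2.48-fold (log2 difference -1.31, SE 0.36, limma adjusted p = 0.00922), and not without late replicate 2 (-1.06, 0.0611). In F5 the difference was -0.92 (limma adjusted p = 0.0628 without and 0.0225 with the replicate block) and in TG6 it was -0.83 (0.142), and both were called with just these groups in the fit (0.0191 and 0.0125). Early OT-1 libraries were above all early TG6 and F5 libraries, by 0.61 (limma adjusted p = 0.218) and 0.55 (0.354), without passing the test, and the first was called with just these groups in the fit (0.0160). From early to late, dendritic cell marker sums also fell in OT-1 (79.5 to 179 and then 33.7 to 43.9). They overlapped in F5 and rose in TG6 (24.7 to 58.1 and then 67.9 to 75.0). Their part in the fall of Slc39a8 was not tested.

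Mature libraries had Slc39a8 counts of 55.1, 56.1 and 212 in TG6, 74.0, 115 and 102 in F5, and 90.9, 88.5 and 147 in OT-1. TG6 mature replicate 3 lay apart from its group. Without it OT-1 was called as higher than TG6 (log2 difference 0.92, limma adjusted p = 0.0114), against 0.28 (0.668) with it. The same library had the high Rag1, Ptcra and Cd4 given above, and the mean of Slc39a8 within each line was highest at the early stage. Its dendritic cell markers summed to 224 against 121 and 122 in the other mature TG6 libraries, and its macrophage markers to 72.4 against 60.9 and 64.8. The part of any of these in its Slc39a8 value was not tested. The macrophage sums were, like Slc39a8, higher in early than in late libraries. Between lines at the early stage the markers of this list differed in direction. Itgam was lower in OT-1 (49.0 to 108.5) than in TG6 and F5 (154.5 to 276). Csf1r (42.8, 32.5 and 5.63), Lyz2 (93.9, 62.3 and 16.8) and Adgre1 (14.6, 18.6 and 4.01) had higher values in OT-1, as Slc39a8 did, than in most early TG6 and F5 libraries, where they reached 8.29, 36.8 and 4.95. Their part in the Slc39a8 differences was not tested.

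Slc39a10 encodes ZIP10, a plasma membrane importer, and moved within a narrow range of 462 to 865. Its normalized counts in mature cells were 608, 630.2 and 704 in TG6, 629, 501 and 648 in F5, and 791, 747 and 810 in OT-1, so that OT-1 was above both other lines. It was called against F5 (1.33-fold, log2 difference 0.41, SE 0.13, limma adjusted p = 0.0315) and not against TG6 (0.27, 0.203). The call against F5 was lost in 7 of 15 alternatives, among them on leaving out F5 replicate 2 or any OT-1 library (0.0544 to 0.137), when each library was scaled to the same total (0.27, 0.130) and after quantile normalization (0.32, 0.0749). At the early stage the OT-1 and TG6 difference of 0.30 (0.106) was called without TG6 replicate 3 (0.40, 0.0464). From early to late its log2 differences were alike in sign, at 0.41 in TG6 (limma adjusted p = 0.0512), 0.33 in F5 (0.0702) and 0.34 in OT-1 (0.0629), and the F5 step was called with the replicate block (0.00476). After quantile normalization the step was called in all 3 lines (0.46, 0.41 and 0.42 in TG6, F5 and OT-1, limma adjusted p = 0.0195, 0.0192 and 0.0183). With a mean of 50 or more it was called in TG6 (0.0404) and OT-1 (0.0480), and in TG6 also with equal totals (0.0284) and with just these groups (0.0494). It was also called without TG6 early replicate 3 in TG6 (0.51, 0.0231), without late replicate 2 in F5 (0.43, 0.0359) and without late replicate 2 in OT-1 (0.42, 0.0477).

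Mt1 and Mt2, the metallothioneins expressed in most tissues, were near the bottom of the scale. Mt1 was listed at 0 in 13 of 26 libraries and Mt2 in 23 of 26. Normalized counts of Mt1 in OT-1 were 2.00, 2.01 and 0.986 at the early stage, 1.04, 0 and 0 at the late stage, and 2.06, 2.09 and 1.01 at the mature stage. In F5 they were 0.974, 4.84 and 0 at the early stage, 1.02, 0 and 0 at the late stage, and 0, 1.89 and 0 at the mature stage. In TG6 the 3 early libraries were at 0, and 1 late library (0.979) and 1 mature library (0.986) were above it. Mt2 was above 0 in early OT-1 replicate 1 (3.00), early TG6 replicate 2 (0.994) and mature TG6 replicate 1 (1.01). A library with Mt1 above a count of 3 was found once, and with Mt2 never, so no fold change or test is given for either gene. Both genes are short and share sequence, so their low values are uncertain.

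The wider family was represented by 21 other zinc genes, of which 14 passed the filter. For OT-1 against TG6, 1 of 14 was called at the early stage (lower) and 0 at the late and mature stages by limma, with 3 and 1 at an unadjusted p under 0.05, against 27.8%, 15.5% and 9.74% of all symbols called. For OT-1 against F5, 0 were called at the early stage (1 at an unadjusted p under 0.05), 3 at the late stage (2 higher and 1 lower) and 1 at the mature stage (lower), against 12.7%, 24% and 23.3% of all symbols. For F5 against TG6, limma called 0 at the early and late stages (0 and 2 at an unadjusted p under 0.05) and 1 at the mature stage (higher), against 6.46%, 4.97% and 6.64% of all symbols. From early to late, 3 rose and 1 fell in TG6, 4 rose and 0 fell in F5, and 4 rose and 1 fell in OT-1, against 25.4%, 26.7% and 26.7% of all symbols called. Each of these counts includes Slc39a5, which passed the filter through late or mature libraries, and without it 2, 3 and 3 of 13 rose. From late to mature, 0 rose and 2 fell in TG6 and in F5, and 1 rose and 1 fell in OT-1, with 22.3%, 20.5% and 24.4% of all symbols called.

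Among these genes Slc39a14 and Slc39a11 rose from early to late positive selection in each line. Slc39a14 encodes ZIP14, an importer of zinc, iron and manganese. Its normalized counts went from 433 to 742 in early TG6 libraries to 1325 and 1027 in the late ones (2.05-fold, limma adjusted p = 0.000771), and it rose 2.21-fold in F5 (9.72e-05) and 1.74-fold in OT-1 (0.00323). For Slc39a11 the rises were 2.63-fold in TG6 (limma adjusted p = 0.000245), 1.83-fold in F5 (0.00639) and 2.59-fold in OT-1 (0.000127), and late OT-1 libraries (389 to 487) were above late F5 libraries (175 to 275) by 2.03-fold (0.00217). Slc39a5 had counts of 0 to 2.02 in early libraries and 2.03 to 10.5 in late ones. It passed the filter through 4 late or mature libraries and 0 early ones, so its calls in each line are not support for a rise. Mtf1, the zinc-sensing transcription factor itself, had counts of 369.5 to 849 and was called in no comparison by limma (1 of 15 at an unadjusted p under 0.05). Slc39a13, named here after its values were seen, was called in 7 of 15 comparisons with log2 differences under 1 in size, lower in OT-1 at 3 of them and falling between stages at the other 4.

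The genes whose pattern over the 26 libraries was most like that of a member were listed by Pearson correlation of log2 values, as a description only. For Slc30a4 they were Psap (0.948), Fam177a (0.937) and Ramp1 (0.931). For Slc39a4 they were Rcl1 (0.944), Traf3 (0.930) and Slc35g1 (0.929), and for Slc39a6 they were Plac8 (0.945), Slc25a15 (0.944) and Armcx4 (0.944). The nearest gene reached 0.911 for Slc39a8 (Dynlt1b) and 0.862 for Slc39a10 (Ctla2b), and only 0.799 for Slc30a1 (9430016H08Rik) and 0.778 for Slc30a7 (AA474331).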

How the data were processed

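RNA-seq signal values for 26 libraries were analysed as the authors deposited them. Per the labels and the study's methods, adapters and poor bases were removed by Trimmomatic 0.32, Bowtie2 2.3.2 placed reads on mm10, RSEM 1.2.31 estimated counts per gene, and DESeq2 scaled these by its median of ratio method. RSEM shares reads among similar transcripts, the values are not whole reads, and the depth in reads is unknown, so count tests and counting intervals were not used. The multigene metallothioneins are short and share sequence, which makes their low values uncertain.

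Samples were grouped by title into 3 lines at 3 stages. Values were taken as log2(value + 1) for 16372 of 46517 symbols, namely those where 2 or more libraries reached 10. With limma (3.58.1, R 4.3.3), 9 group means were fitted (residual degrees of freedom 17) under a variance prior that depends on mean expression, and p-values were adjusted within each of 15 comparisons and 1 interaction. The fit was also run on simulated data as a check of the code only, and no result given here rests on that run. The labels say only that libraries are biological replicates from mice sorted into 3 populations, so p-values measure the spread between these libraries.

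The members and the lists of zinc genes and markers were chosen with earlier results of these data known. Of the 21 other zinc genes, those called with a log2 fold change of at least 1 in size are named, and Mtf1 in any case, with the 3 nearest genes of each member by correlation. The alternatives tried were other pseudocounts (0.1 or 5), keeping every symbol above 0, keeping only symbols with a mean of 50 or more, scaling to equal totals, quantile normalization, a prior with no trend, a fit to just the groups in question, leaving out each library, and a replicate block. Replicate numbers were taken to pair libraries within a line where each pair of same-numbered libraries correlated over 0.1 after removal of group means. This held in F5 (9 of 9 pairs, 0.106 to 0.340) and not in OT-1 (5 of 9) or TG6 (2 of 7). All pairs in OT-1 and TG6 were positive as well (lowest 0.0189 and 0.023). The cut was a choice, and pairs with different numbers were not correlated, so the rule cannot establish or refute pairing. Gene lengths are from GENCODE vM21 and promoters from RefSeq, both on GRCm38.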

Additional observations from a re-analysis of the deposited data

Results flagged for a closer look

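The Slc30a4 difference between OT-1 and TG6 changed with stage, by the test of an interaction. The log2 difference, OT-1 minus TG6, was -1.97 at the early stage and -1.33 at the mature stage, and their difference was -0.65 (95% interval -1.01 to -0.28, limma adjusted p = 0.0377). Of all symbols, 4.20% were called in this interaction, and of the 7 members tested Slc30a4 was the only one called. Group means went from 1841 to 825 in TG6 and from 469 to 328 in OT-1. The call was lost in 12 of 22 alternatives, 9 of them with a library left out, and the adjusted p ran from 0.00622 to 0.111 over these alternatives. TG6 mature replicate 3, which stood apart from its group in Rag1 (5265 against 696 and 619.9), is among the libraries of this test, and without it the call was lost (-0.61, limma adjusted p = 0.0502).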

How the results depend on the processing

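Of 112 values (7 members in 15 comparisons and the interaction), 29 were called. Of these, 16 were called under every alternative in which the gene was tested, 13 lost the call in at least 1, and 0 reversed. Among the 16, 3 are Slc39a4 calls, which have no value with a mean of at least 50. The share of all symbols called was not computed for the alternatives, so the counts below are not set against it. Counts that moved by more than 1.5 times are given first. When a fit held just the groups in question, members called became 5 for OT-1 against TG6 early, 2 for OT-1 against F5 mature, 0 for F5 against TG6 late, 4 for TG6 early to late and 1 for F5 late to mature. Without the filter they became 0 for F5 against TG6 early, F5 early to late and the interaction. With a mean of at least 50, which removes Slc39a4, they became 0 for F5 against TG6 late, 2 for F5 early to late and 1 for F5 late to mature. Without the variance trend they were 0 for F5 against TG6 early and for the interaction, and quantile normalization gave 0 for the interaction and 2 for TG6 late to mature, as did total scaling for the latter. A pseudocount of 5 gave 1 for F5 against TG6 mature. Within smaller moves of the counts, calls also changed. From early to late in F5, Slc30a4 gave way to Slc39a8 with just the groups in question (0.0797 and 0.0191) and to Slc39a10 after quantile normalization (0.0546 and 0.0192). In OT-1 the same step lost Slc30a4 under these settings (0.0856 and 0.0698) and gained Slc39a6 and Slc39a10 under the latter. Without the filter it lost Slc30a7 (0.0783), and OT-1 against F5 early lost Slc39a4 (0.0535). Over the alternatives other than the block and left-out libraries, and counting a value once for each, 21 calls were lost and 18 gained. Except for the effect of the removed gene, the cause was not tested.

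Leaving out each library in turn, OT-1 against TG6 gave 2 to 4 members called at the early stage, 2 to 2 at the late stage and 1 to 2 at the mature stage. OT-1 against F5 gave 2 to 3, 3 to 4 and 3 to 4. F5 against TG6 gave 0 to 0, 0 to 1 and 0 to 1. From early to late the range was 1 to 3 in TG6, 0 to 1 in F5 and 2 to 4 in OT-1, from late to mature it was 1 to 1, 1 to 2 and 0 to 0, and the interaction gave 0 to 1. Late TG6 then rests on 1 library, which is assumed to vary like the other groups.

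With the replicate block as a fixed or a random term, members called in F5 from early to late rose from 1 to 4. The share of all symbols called by these fits was not computed. In OT-1 and TG6 the rule for pairing was not met, though all same-numbered correlations were positive (0.0189 to 0.178 and 0.023 to 0.274). In OT-1, replicate 3 also had the highest Hbb-bs at each stage (432, 376.5 and 417 from early to mature). Replicates 1 and 2 were at 34.9 to 151. The labels do not say whether the numbers mark the same mouse. With the block, OT-1 gained Slc39a6 (0.25, limma adjusted p = 0.0190) and Slc39a10 (0.34, 0.00404) from early to late. TG6 gained Slc39a10 (0.49, 0.00109) at the same step, and the block changed no other call.

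Scaling each library to the same total moved the median log2 difference of all symbols to between -0.075 and -0.13 in the 6 comparisons of OT-1 with another line and to -0.11 for TG6 late to mature. The depth in reads is unknown, and values at or near 0, such as those of Mt1 and Mt2, were too low to compare.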
